A study of Mus musculus with 2 samples.

Results

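Transforming growth factor beta (TGF-beta) and bone morphogenetic protein (BMP) family genes were described in 2 RNA-seq libraries of MMTV-PyVT mammary tumors. The treated library came after dosing with C3G, cyanidin-3-glucoside, a plant anthocyanin, and the control library after DMSO, dimethyl sulfoxide, a solvent used as vehicle. All the mice carried the polyoma middle T antigen under the mouse mammary tumor virus promoter, which drives it mainly in mammary epithelium. Dosing began at ductal hyperplasia, and tumors were collected at a preset burden, and the labels used here give no age, dose or number of mice or tumors behind a library, so the C3G tumor and the DMSO tumor stand for 1 library each. The genes were the 57 protein-coding rows, of 55536 rows in all and 22028 protein-coding ones, whose symbol belonged to the TGF-beta ligands and receptors, BMPs, growth and differentiation factors (GDFs), activin and inhibin subunits, activin and BMP receptors, Smads, latent TGF-beta binding proteins or Id factors. Values are TPM, transcript abundance scaled by gene length and library total, so levels of different genes can be compared within a library.

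Ligands of this family are dimers that bring together a type I and a type II serine/threonine kinase receptor. The type I receptor phosphorylates receptor-activated Smads, which join Smad4 and enter the nucleus, where Smad2 and Smad3 serve the TGF-beta and activin branch and Smad1, Smad5 and Smad9 the BMP branch. In the mammary gland TGF-beta is known for restraining epithelial growth and for acting on stroma and invasion in established tumors, and the Id genes, inhibitors of helix-loop-helix transcription factors, are classic targets of BMP signalling.

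Promoter windows are shown for Ltbp4 and Smad6, the 2 members past 1.5-fold at 5 TPM or more, and for Tgfb1 and Tgfb2, the ligands whose ratios lay on opposite sides of 1. They come from RefSeq on build GRCm38.p6, are 300 bases long with a start site 50 bases from the end, and existed for 42 of the 57 members in 53 windows. Capitals mark matches on either strand to 4 motifs known from Smad binding, which are the palindrome GTCTAGAC, the shorter element CAGAC, the GC-rich palindrome GGCGCC and the GC-rich element GCCGNCGC, and matches can overlap.
Smad6, chr9:64022010-64022309, minus strand: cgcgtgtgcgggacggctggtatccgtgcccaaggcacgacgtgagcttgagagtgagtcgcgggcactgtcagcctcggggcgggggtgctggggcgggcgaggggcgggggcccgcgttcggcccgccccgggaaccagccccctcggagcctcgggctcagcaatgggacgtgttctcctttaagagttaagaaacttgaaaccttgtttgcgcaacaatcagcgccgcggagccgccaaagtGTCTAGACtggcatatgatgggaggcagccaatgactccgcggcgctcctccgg
Ltbp4, upstream start, chr7:27337563-27337862, minus strand: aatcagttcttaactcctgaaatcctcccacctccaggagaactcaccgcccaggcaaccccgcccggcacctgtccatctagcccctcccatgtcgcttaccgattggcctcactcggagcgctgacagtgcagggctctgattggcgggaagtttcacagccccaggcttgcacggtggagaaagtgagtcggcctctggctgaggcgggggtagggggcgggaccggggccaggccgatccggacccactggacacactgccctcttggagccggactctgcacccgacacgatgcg
Ltbp4, downstream start, chr7:27333599-27333898, minus strand: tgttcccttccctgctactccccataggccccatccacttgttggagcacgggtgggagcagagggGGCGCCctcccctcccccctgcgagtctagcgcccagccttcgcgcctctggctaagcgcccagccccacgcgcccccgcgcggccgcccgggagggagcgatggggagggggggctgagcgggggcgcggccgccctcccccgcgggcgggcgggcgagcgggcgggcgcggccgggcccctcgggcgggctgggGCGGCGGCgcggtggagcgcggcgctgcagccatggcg
Tgfb1, chr7:25686752-25687051, plus strand: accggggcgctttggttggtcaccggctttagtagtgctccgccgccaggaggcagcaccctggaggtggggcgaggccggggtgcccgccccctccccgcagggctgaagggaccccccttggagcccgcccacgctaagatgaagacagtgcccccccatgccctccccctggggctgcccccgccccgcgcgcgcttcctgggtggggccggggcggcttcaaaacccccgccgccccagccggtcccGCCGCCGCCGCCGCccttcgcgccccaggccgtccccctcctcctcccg
Tgfb2, chr1:186705940-186706239, minus strand: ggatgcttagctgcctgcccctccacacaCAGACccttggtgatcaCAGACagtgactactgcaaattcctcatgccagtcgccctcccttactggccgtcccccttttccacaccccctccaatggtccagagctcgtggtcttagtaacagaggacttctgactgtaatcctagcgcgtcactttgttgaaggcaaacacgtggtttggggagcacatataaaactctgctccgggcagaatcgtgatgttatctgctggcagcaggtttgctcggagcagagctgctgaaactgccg
The Smad6 window held the palindrome GTCTAGAC, which occurred in 0.213% of all 32851 windows of that length. The downstream Ltbp4 window held 1 GGCGCC (11.9% of all windows had it) and 1 GCCGNCGC (9.76% of all windows). Another downstream Ltbp4 window, chr7:27333614-27333913, overlaps it, held the same matches and is not shown. The upstream Ltbp4 window held none of the motifs. The Tgfb1 window, with a GC content of 77.0%, held 3 overlapping GCCGNCGC matches. The Tgfb2 window, with a GC content of 54.3%, held 2 copies of CAGAC, a short sequence found in 49.6% of all windows. Over the 53 windows of family members the shares were 1.89% for GTCTAGAC, 24.5% for GGCGCC, 28.3% for GCCGNCGC and 47.2% for CAGAC. A match describes letters and does not show a bound site.

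The C3G library held 16081110 gene-assigned reads and the DMSO library 12192275, both recovered from the TPM values. Family members took 0.318% of reads in the C3G library and 0.320% in the DMSO library. The labelled tissue was checked by luminal epithelial genes, whose 7 listed members summed to 6069 TPM in the C3G tumor and 8135 TPM in the DMSO tumor, with none at 0 in either. Of these 7, 5 were lower in the C3G tumor, with Krt19 2.75-fold and Krt18 1.60-fold lower. Markers of other cell types differed between the libraries as well. All 10 endothelial markers were higher in the C3G tumor (sum 114 against 45.7 TPM), as were all 7 adipocyte markers (988 against 181 TPM). Of the myoepithelial markers 7 of 9 were lower (614 against 1195 TPM), and all 6 T cell markers were lower (16.1 against 53.8 TPM). With 1 library a group there is no replicate check and no test, and differences between the treatments, the mice and the libraries cannot be told apart. Intervals in parentheses are exact conditional 95% intervals from the recovered reads and cover counting error only.

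Family members typically differed between the libraries by as much as other genes did. Counts past the fold thresholds rest on 30 members and were not tested against the share of other genes. The median size of the log2 ratio was 0.30 over the 30 members with at least 5 TPM in either tumor, 0.30 over all genes at that level and 0.27 over protein-coding ones. None of the 30 members was past 2-fold on the log2(TPM + 1) scale, where 7.40% of all 12780 genes at that level were (3.10% higher and 4.30% lower), and 3.43% of protein-coding ones. Past 1.5-fold, 2 of the 30 were higher, Ltbp4 and Smad6, and 0 were lower, where 20.6% of all genes were past it (11.5% higher and 9.15% lower) and 15.3% of protein-coding ones. The members' log2 ratios at that level ran from -0.53 for Bmp1 to 0.73 for Ltbp4. Over the 38 members with a mean of at least 1 TPM the median log2 ratio was 0.06, with 23 above and 15 below 0. Over all 17468 such genes it was 0.10, with 10288 above 0, which is 58.9% of them, and the share was 64.0% over protein-coding ones. The summed level of all 57 members was 1799 TPM in the C3G tumor and 1718 TPM in the DMSO tumor. Centring on genes with a mean of at least 10 TPM lowered every log2 ratio by 0.12, after which 38.3% of calls past 1.5-fold over all genes were higher, in place of 55.6%. At 2-fold that share was 41.9%, or 31.0% when centred, 31.1% under a stricter filter on low values and 55.0% with length and GC trends removed.

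**Figure D1:**
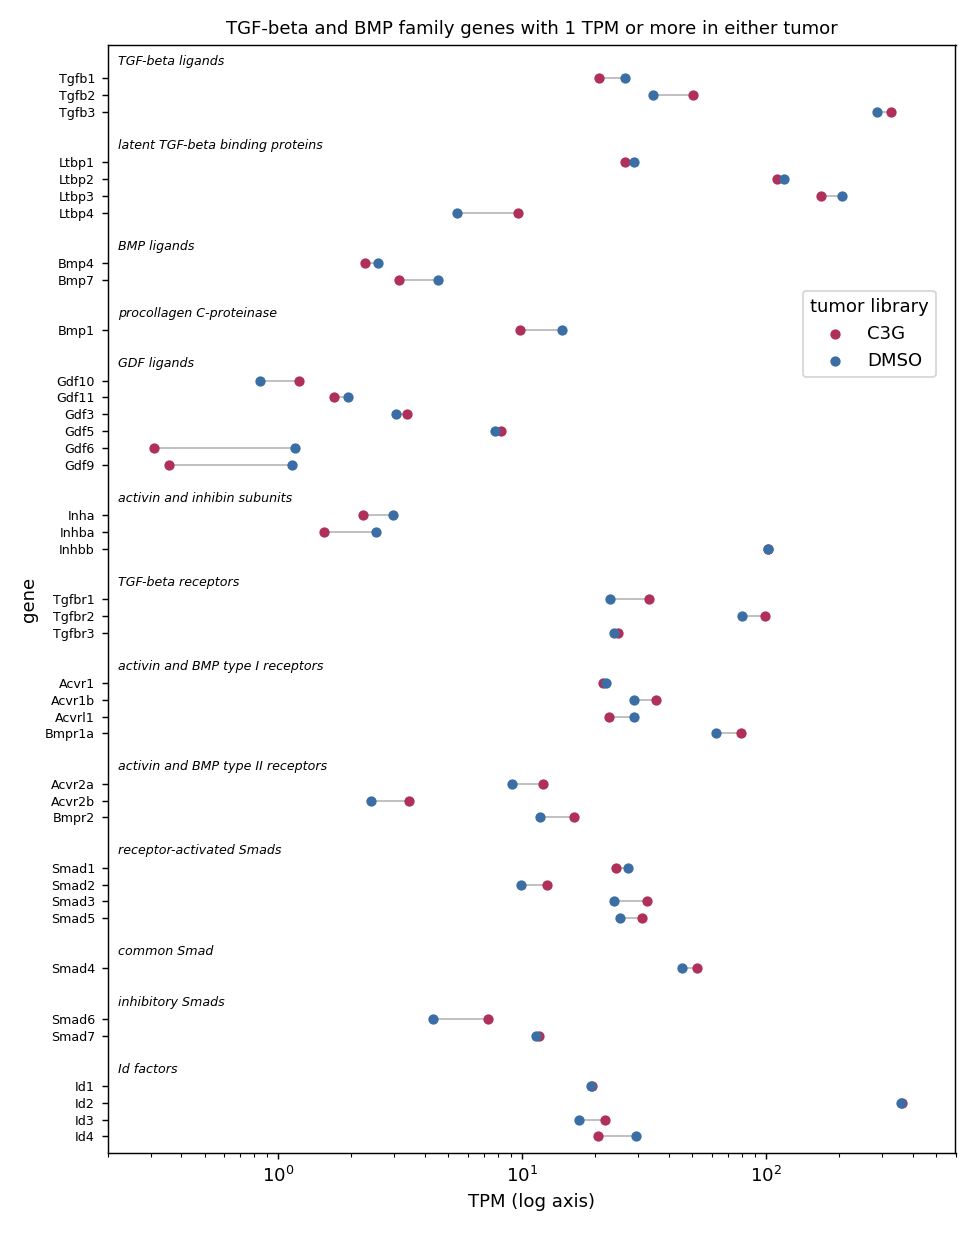
TPM on a log axis of the 40 members with at least 1 TPM in either tumor, grouped by role, with 1 point per library and a grey line joining them. Most pairs lie close together; Id2 and Tgfb3 stand furthest to the right in both libraries.

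**Figure D2:**
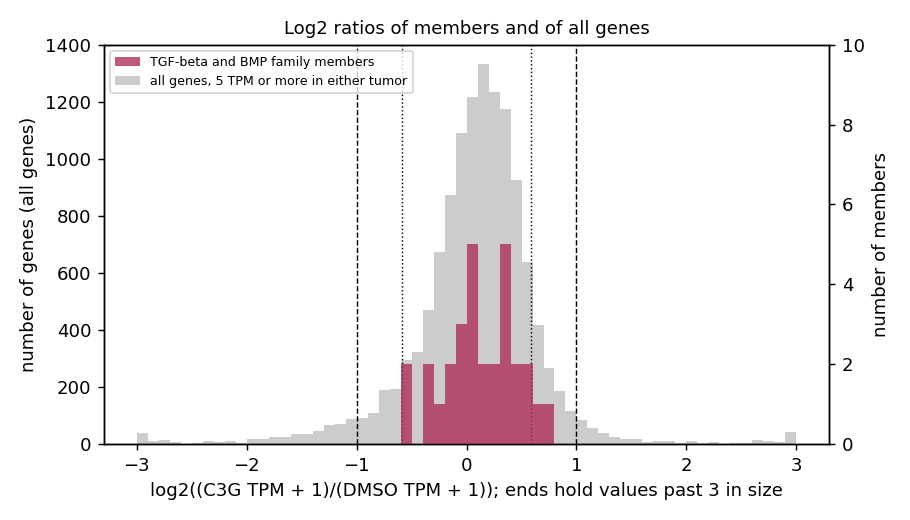
Log2 ratio, C3G over DMSO, of the 30 members with at least 5 TPM in either tumor (right axis, number of members) and of all 12780 genes at that level (left axis, number of genes). Dotted lines mark 1.5-fold and dashed lines 2-fold; no member lies beyond the dashed lines.

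Tgfb3 was the dominant TGF-beta ligand in both tumors. The 3 ligands are secreted in latent form and signal through the same receptors. Tgfb3 (chromosome 12, 86056745 to 86079041, in mm10 like all gene positions here) reached 326 TPM in the C3G tumor and 286 TPM in the DMSO tumor, a ratio of 1.14 (1.10 to 1.19). That was 82.1% of summed TGF-beta ligand TPM in the C3G tumor and 82.5% in the DMSO tumor. Its level was above that of 97.5% and 97.1% of the 13547 protein-coding genes with at least 1 TPM in either tumor, in the C3G and the DMSO library. Other annotated genes, Gm37804 and Gm48008, overlap 12.4% of its exon bases, and the libraries do not mark strand.

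Tgfb2 and Tgfb1 lay on opposite sides of a ratio of 1. Tgfb2 (chromosome 1, 186622792 to 186705989) stood at 50.4 TPM in the C3G tumor and 34.4 TPM in the DMSO tumor, 1.46-fold higher (1.35 to 1.59). Tgfb1 (chromosome 7, 25687002 to 25705077), the isoform best known from immune and stromal cells, stood at 20.8 TPM in the C3G tumor and 26.5 TPM in the DMSO tumor, 1.28-fold lower (1.14 to 1.43). The level of Tgfb2 over that of Tgfb1 was therefore 2.43 in the C3G tumor and 1.30 in the DMSO tumor. Neither gene passed 1.5-fold. All 6 T cell markers were lower in the same C3G library, on 113 reads there and 294 in the DMSO library. Of 6 macrophage markers 4 were lower (sum 927 TPM in the C3G tumor and 1083 TPM in the DMSO tumor). Of 8 fibroblast markers 6 were lower. The part of any of these cells in the Tgfb1 value was not tested. In bulk tumor RNA, fewer cells of a type and less RNA per cell cannot be told apart.

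Latent TGF-beta binding proteins tether the latent ligand to the matrix, and Ltbp4 alone of the 4 had a ratio above 1. Ltbp4 (chromosome 7, 27305136 to 27337692) stood at 9.63 TPM in the C3G tumor and 5.42 TPM in the DMSO tumor, 1.78-fold higher (1.46 to 2.16), the largest log2 ratio among the 40 members with at least 1 TPM in either tumor. The most abundant of them, Ltbp3 (chromosome 19, 5740904 to 5758532), stood at 169 TPM in the C3G tumor and 206 TPM in the DMSO tumor, 1.22-fold lower (1.18 to 1.26). Ltbp2, which differs from the others in not binding latent TGF-beta, stood at 111 TPM in the C3G tumor and 119 TPM in the DMSO tumor. Ltbp1 stood at 26.5 TPM in the C3G tumor and 28.7 TPM in the DMSO tumor. Ltbp4 was the least abundant of them in both, at 3.05% of their summed TPM in the C3G tumor and 1.51% in the DMSO tumor. Fibroblast markers, from cells that make matrix, had a median log2 ratio of -0.19 (8 of 8 detected, sum 1298 TPM in the C3G tumor and 1576 TPM in the DMSO tumor). Adipocyte and endothelial markers were higher, as given above, and the part of any of these in the Ltbp4 value was not tested.

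**Figure D3:**
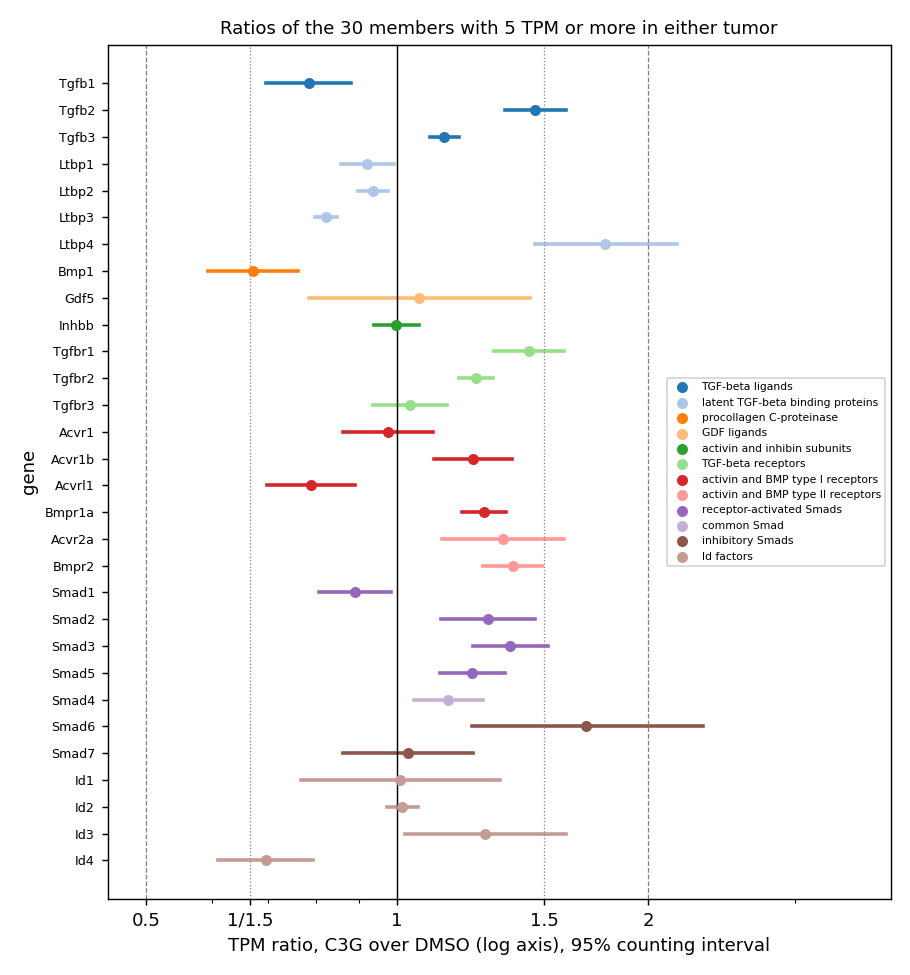
TPM ratio, C3G over DMSO, on a log axis for the 30 members with at least 5 TPM in either tumor, coloured by role, with bars for 95% counting intervals. Dotted lines mark 1.5-fold and dashed lines 2-fold; Ltbp4 and Smad6 lie furthest to the right, at 1.78 and 1.68, and Bmp1 furthest to the left, 1.49-fold lower.

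BMP ligands were scarce. None of the 10 genes reached 5 TPM, their summed level was 7.34 TPM in the C3G tumor and 9.62 TPM in the DMSO tumor, and 8 of them stayed under 1 TPM in both. Bmp7, a ligand of epithelial organs, was the most abundant at 3.12 TPM in the C3G tumor and 4.53 TPM in the DMSO tumor, 1.45-fold lower (1.04 to 2.03). Bmp4, a ligand of mesenchyme, stood at 2.27 TPM on 28 reads in the C3G tumor and 2.57 TPM on 25 reads in the DMSO tumor, a ratio of 0.884 (0.497 to 1.58). Bmp1, which despite its name is a procollagen C-proteinase and not a ligand, stood at 9.79 TPM in the C3G tumor and 14.6 TPM in the DMSO tumor, 1.49-fold lower (1.31 to 1.68). It lay just short of 1.5-fold, and past it on centring.

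Among the GDFs only Gdf5, a ligand known from joints and cartilage, passed 5 TPM, at 8.24 TPM in the C3G tumor and 7.75 TPM in the DMSO tumor, a ratio of 1.06 (0.785 to 1.44). Another gene overlaps 40.3% of its exon bases. Gdf3 stood at 3.38 TPM in the C3G tumor and 3.05 TPM in the DMSO tumor. The circulating ligand Gdf11 stood at 1.70 TPM in the C3G tumor and 1.93 TPM in the DMSO tumor, and Gdf10 at 1.22 TPM in the C3G tumor and 0.841 TPM in the DMSO tumor. Gdf6, a ligand of skeletal and eye development, stood at 0.309 TPM on 6 reads in the C3G tumor and 1.18 TPM on 18 reads in the DMSO tumor. Its plain ratio was 3.80-fold lower (1.45 to 11.7). The oocyte factor Gdf9 stood at 0.358 TPM on 4 reads in the C3G tumor and 1.14 TPM on 10 reads in the DMSO tumor. Its plain ratio was 3.17-fold lower (0.914 to 13.8). These low values rest on few reads. The stress-induced cytokine Gdf15 was under 1 TPM in both, with 8 reads in the C3G library and 2 in the DMSO library.

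Activin and inhibin transcripts were almost all Inhbb. It encodes the beta B subunit shared by activin B and inhibin B (chromosome 1, 119415465 to 119422248), and stood at 102 TPM in both tumors, with a ratio of 0.998 (0.939 to 1.06). Inhbb made up 96.4% of the summed TPM of these subunits in the C3G tumor and 94.9% in the DMSO tumor. Inhba, the beta A subunit of activin A, stood at 1.54 TPM in the C3G tumor and 2.53 TPM in the DMSO tumor, and Inha, the inhibin alpha subunit, at 2.22 TPM in the C3G tumor and 2.97 TPM in the DMSO tumor. Of all 57 members, 17 were under 1 TPM in both tumors, and 4 of these, Bmp10, Gdf1, Gdf2 and Inhbc, had no read in either. Every exon base of Gdf1 overlaps another gene, so its 0 gives no measure of its expression. A count of 3 reads, taken as the limit that a count of 0 allows, is 0.128 TPM in the C3G library and 0.162 TPM in the DMSO library at the members' median exon length of 4265 bases.

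**Figure D4:**
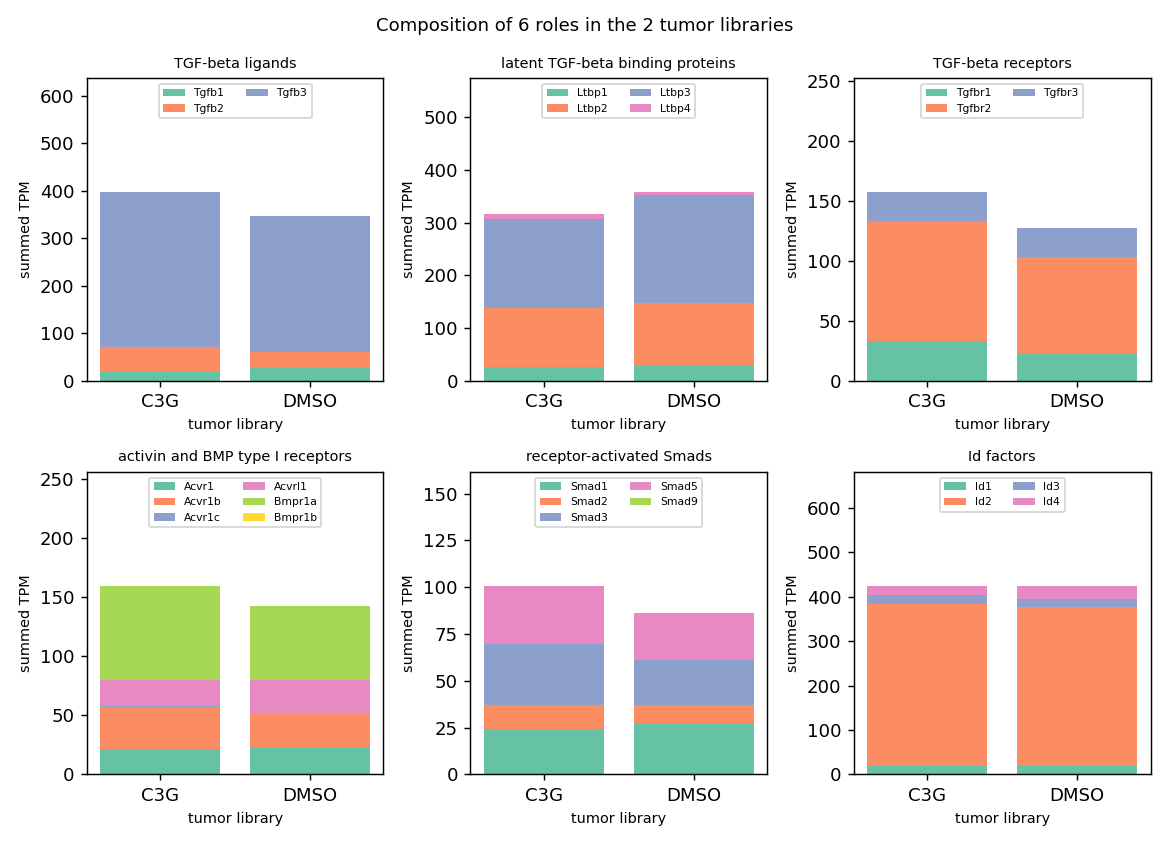
Summed TPM of 6 roles in the C3G and the DMSO tumor, stacked by gene. Tgfb3 and Id2 fill most of their bars in both libraries, and the bars of TGF-beta ligands, TGF-beta receptors, type I receptors and receptor-activated Smads are taller in the C3G tumor.

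No receptor transcript with at least 5 TPM in either tumor was past 1.5-fold. Of 12 receptor genes 10 had a mean of at least 1 TPM, with 8 of the 10 above 0 and a median log2 ratio of 0.33, or 0.21 with 7 above 0 on centring. Of all genes with such a mean, 58.9% were above 0, and 64.0% of protein-coding ones. Long transcripts had higher ratios over the whole table, with a median log2 ratio of -0.20 in the shortest eighth and 0.21 in the longest eighth of genes with a mean of at least 5 TPM. The median member with such a mean was 5614 bases long, against 3924 for all such genes. With length and GC trends removed the receptors' median was 0.25, with 8 of 10 above 0. The median over all genes with a mean of at least 1 TPM was 0.10, or -0.02 on centring and 0.13 with trends removed. How far length bears on the receptors' median was not tested further.

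Tgfbr2, the type II receptor that binds TGF-beta, was the most abundant receptor at 99.6 TPM in the C3G tumor and 80.2 TPM in the DMSO tumor, 1.24-fold higher (1.19 to 1.30). Its type I partner Tgfbr1 stood at 33.1 TPM in the C3G tumor and 23.0 TPM in the DMSO tumor, 1.44-fold higher (1.31 to 1.59). The coreceptor betaglycan, Tgfbr3, which presents Tgfb2 to the kinase receptors, stood at 24.7 TPM in the C3G tumor and 23.8 TPM in the DMSO tumor, a ratio of 1.04 (0.937 to 1.15). Tgfbr1 thus had the larger ratio of the kinase pair, and Tgfbr2 the higher level in both tumors.

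Among activin and BMP type I receptors, Bmpr1a, the BMP receptor of most epithelia, led at 79.2 TPM in the C3G tumor and 62.3 TPM in the DMSO tumor, 1.27-fold higher (1.20 to 1.35). Acvr1b, the activin receptor, stood at 35.5 TPM in the C3G tumor and 28.8 TPM in the DMSO tumor. Acvr1, another BMP receptor, stood at 21.6 TPM in the C3G tumor and 22.2 TPM in the DMSO tumor. Acvrl1, the endothelial type I receptor for the circulating ligands Gdf2 and Bmp10, had 532 reads in each library, which is 22.7 TPM in the C3G tumor and 28.8 TPM in the DMSO tumor, 1.27-fold lower (1.12 to 1.43). All 10 endothelial markers were higher in the same library, with a median log2 ratio of 1.07. Acvrl1 was more abundant than each of these markers in both tumors, and the part of endothelial cells in its value was not tested. Acvr1c and Bmpr1b were under 1 TPM in both tumors.

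All 3 type II receptors of the activin and BMP branch had ratios above 1. Bmpr2, the BMP type II receptor, stood at 16.4 TPM in the C3G tumor and 11.9 TPM in the DMSO tumor, 1.38-fold higher (1.27 to 1.49). The activin receptor Acvr2a stood at 12.2 TPM in the C3G tumor and 9.09 TPM in the DMSO tumor, and its relative Acvr2b at 3.43 TPM in the C3G tumor and 2.41 TPM in the DMSO tumor.

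Of 8 Smads 7 had a mean of at least 1 TPM, with 6 of the 7 above 0, beside 58.9% of all genes and 64.0% of protein-coding genes. Their median log2 ratio was 0.29, or 0.17 with 5 above 0 on centring and 0.22 with length and GC trends removed. Over all genes with such a mean the median was 0.10, or -0.02 on centring and 0.13 with trends removed. Smad3, the TGF-beta and activin Smad that binds DNA directly, stood at 32.5 TPM in the C3G tumor and 23.8 TPM in the DMSO tumor, 1.37-fold higher (1.23 to 1.52). Its partner Smad2 stood at 12.7 TPM in the C3G tumor and 9.90 TPM in the DMSO tumor, 1.29-fold higher (1.13 to 1.46). On the BMP branch, Smad5 stood at 31.1 TPM in the C3G tumor and 25.3 TPM in the DMSO tumor, and Smad1 at 24.3 TPM in the C3G tumor and 27.3 TPM in the DMSO tumor. The summed level of Smad2 and Smad3 over that of Smad1, Smad5 and Smad9 was 0.815 in the C3G tumor and 0.640 in the DMSO tumor. Smad9 had 3 reads in the C3G library and 0 in the DMSO library. The common partner Smad4 stood at 52.5 TPM in the C3G tumor and 45.5 TPM in the DMSO tumor, 1.15-fold higher (1.05 to 1.27).

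The inhibitory Smads differed from each other. Smad6, which restrains the BMP branch and is itself a BMP target (chromosome 9, 63953076 to 64022059), stood at 7.27 TPM on 128 reads in the C3G tumor and 4.32 TPM on 60 reads in the DMSO tumor, 1.68-fold higher (1.23 to 2.33). It lost 1.5-fold on centring. Smad7, which restrains TGF-beta receptors, stood at 11.7 TPM in the C3G tumor and 11.4 TPM in the DMSO tumor, a ratio of 1.03 (0.862 to 1.23). Smad6 is known to be expressed in endothelium, and the endothelial marker sum was 114 TPM in the C3G tumor and 45.7 TPM in the DMSO tumor. The part of those cells in the Smad6 value was not tested.

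The Id factors were dominated by Id2, which is known for its role in mammary lobule development. Id2 (chromosome 12, 25093799 to 25097140) was the most abundant family member, at 363 TPM in the C3G tumor and 358 TPM in the DMSO tumor, a ratio of 1.01 (0.972 to 1.06). Id1 (chromosome 2, 152736251 to 152737410) stood at 19.5 TPM in the C3G tumor and 19.3 TPM in the DMSO tumor, a ratio of 1.01 (0.767 to 1.33). Id2 made up 85.5% of summed Id TPM in the C3G tumor and 84.5% in the DMSO tumor. Id3 stood at 21.8 TPM in the C3G tumor and 17.1 TPM in the DMSO tumor, 1.28-fold higher (1.02 to 1.60). Id4, a factor of basal mammary cells, stood at 20.5 TPM in the C3G tumor and 29.4 TPM in the DMSO tumor, 1.44-fold lower (1.26 to 1.64), and past 1.5-fold on centring. Myoepithelial markers had a median log2 ratio of -0.65 and went both ways. The contractile genes Acta2, Myh11, Cnn1 and Mylk were each past 2-fold lower. Among the basal markers, Krt5 and Trp63 were 1.34-fold and 1.25-fold higher, and Krt14 and Krt17 were 1.27-fold and 1.60-fold lower. The remaining marker, Oxtr, was 1.43-fold lower. The part of myoepithelial cells in the Id4 value was not tested.

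For most members with at least 5 TPM in either tumor, the counting interval of the ratio left out 1, for some of them narrowly. Of the 30 members at 5 TPM or more, the 95% counting interval of the ratio lay above 1 for 15, where it did for 42.2% of all genes, and below 1 for 8, where it did for 20.7%. For the remaining 7 it held 1. These intervals compare the libraries and not the treatments.

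Other genes of the pathway were grouped in 5 lists. Counts past 1.5-fold were taken over genes with at least 5 TPM in either tumor. At that level 20.6% of all genes and 15.3% of protein-coding ones were past it. Of 23 antagonists and coreceptors 17 had a mean of at least 1 TPM, with a median log2 ratio of 0.29 and 11 above 0. Of 12 with at least 5 TPM in either tumor, 1 was higher and 1 lower past 1.5-fold. Bambi, a decoy receptor, stood at 6.28 TPM in the C3G tumor and 3.05 TPM in the DMSO tumor, 2.06-fold higher (1.55 to 2.77). Htra1, a serine protease that can cleave TGF-beta family proteins, stood at 23.5 TPM in the C3G tumor and 41.4 TPM in the DMSO tumor, 1.77-fold lower (1.54 to 2.02). Endoglin (Eng), the endothelial coreceptor that works with Acvrl1, stood at 16.0 TPM in the C3G tumor and 10.6 TPM in the DMSO tumor, 1.51-fold higher (1.26 to 1.82), short of 1.5-fold on the log2(TPM + 1) scale. The Nodal antagonist Lefty1 stood at 9.21 TPM in the C3G tumor and 6.04 TPM in the DMSO tumor.

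Genes listed for handling or releasing latent TGF-beta went both ways. The median log2 ratio of 12 measured genes of 13 was -0.05, with 6 above and 6 below 0. Of 12 with at least 5 TPM in either tumor, 1 was higher and 1 lower past 1.5-fold. Itgb8, an integrin subunit that frees latent TGF-beta, stood at 12.0 TPM in the C3G tumor and 6.86 TPM in the DMSO tumor, 1.74-fold higher (1.53 to 1.99). The membrane protease Mmp14 stood at 56.1 TPM in the C3G tumor and 106 TPM in the DMSO tumor, 1.89-fold lower (1.78 to 2.01). Thrombospondin (Thbs1), an activator in the matrix, stood at 227 TPM in the C3G tumor and 154 TPM in the DMSO tumor, and the gelatinase Mmp2 at 45.6 TPM in the C3G tumor and 63.8 TPM in the DMSO tumor.

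Intracellular regulators had a median log2 ratio of 0.18 over 18 measured genes of 20, with 13 above 0. Of 18 with at least 5 TPM in either tumor, 1 was higher and 1 lower past 1.5-fold. Skil, a Smad corepressor induced by TGF-beta, stood at 32.5 TPM in the C3G tumor and 19.2 TPM in the DMSO tumor, 1.69-fold higher (1.55 to 1.84). Ppp1r15a, a phosphatase subunit of the stress response that also binds Smad7, stood at 53.5 TPM in the C3G tumor and 98.4 TPM in the DMSO tumor, 1.84-fold lower (1.69 to 2.01). Pmepa1, a feedback inhibitor of Smad2 and Smad3, stood at 247 TPM in the C3G tumor and 369 TPM in the DMSO tumor. Trim33, a ubiquitin ligase that acts on Smad4, stood at 33.9 TPM in the C3G tumor and 23.9 TPM in the DMSO tumor.

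Listed TGF-beta targets did not move one way. All 20 were measured, with a median log2 ratio of -0.16 and 8 above and 12 below 0. All 20 had at least 5 TPM in either tumor, and 4 were higher and 3 lower past 1.5-fold. The share past it was 20.6% of all genes at that level and 15.3% of protein-coding ones. Angptl4, a lipase inhibitor, was 2.17-fold higher (1.74 to 2.72) at 15.5 TPM in the C3G tumor and 7.17 TPM in the DMSO tumor. Connective tissue growth factor (Ccn2) was 1.91-fold higher (1.76 to 2.07) at 130 TPM in the C3G tumor and 68.0 TPM in the DMSO tumor. The smooth muscle gene Tagln was 2.37-fold lower (1.64 to 3.47) at 4.21 TPM in the C3G tumor and 9.98 TPM in the DMSO tumor, and the cell cycle inhibitor Cdkn1a 1.73-fold lower (1.53 to 1.95) at 23.0 TPM in the C3G tumor and 39.8 TPM in the DMSO tumor. Skil and Pmepa1, given above, belonged to this list too, and Skil was among the 4 higher. Col1a1 and Col1a2 of this list were also counted among the fibroblast markers. Angptl4 is also a fat cell gene and Tagln a smooth muscle gene. Adipocyte markers had a median log2 ratio of 2.28 and myoepithelial markers one of -0.65, and their part in these values was not tested.

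Listed BMP targets outside the family had a median log2 ratio of -0.30 over 12 measured genes of 18, with 5 above and 7 below 0. Of 9 with at least 5 TPM in either tumor, 4 were higher and 3 lower past 1.5-fold. The share past it was 20.6% of all genes at that level and 15.3% of protein-coding ones. Dlx5, a homeobox factor of bone and limb, was 3.18-fold higher (2.22 to 4.63) at 12.6 TPM in the C3G tumor and 3.97 TPM in the DMSO tumor. The Notch and BMP target Hey1 was 1.77-fold higher (1.69 to 1.85) at 348 TPM in the C3G tumor and 197 TPM in the DMSO tumor. Cdh5, which was also counted among the endothelial markers, stood at 17.8 TPM in the C3G tumor and 7.52 TPM in the DMSO tumor, and Bambi, given above, belonged to this list too. Among the 3 lower ones, Runx2, a bone factor, stood at 3.75 TPM in the C3G tumor and 6.68 TPM in the DMSO tumor, 1.78-fold lower (1.47 to 2.17). Gata3, a luminal mammary factor, stood at 239 TPM in the C3G tumor and 365 TPM in the DMSO tumor, 1.53-fold lower (1.47 to 1.59). The phosphatase gene Alpl stood at 82.9 TPM in the C3G tumor and 126 TPM in the DMSO tumor, 1.52-fold lower (1.43 to 1.62). Runx2, Gata3 and Alpl were named after their values were seen. The median was 0.01 over genes with a mean of at least 5 TPM.

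**Figure D5:**
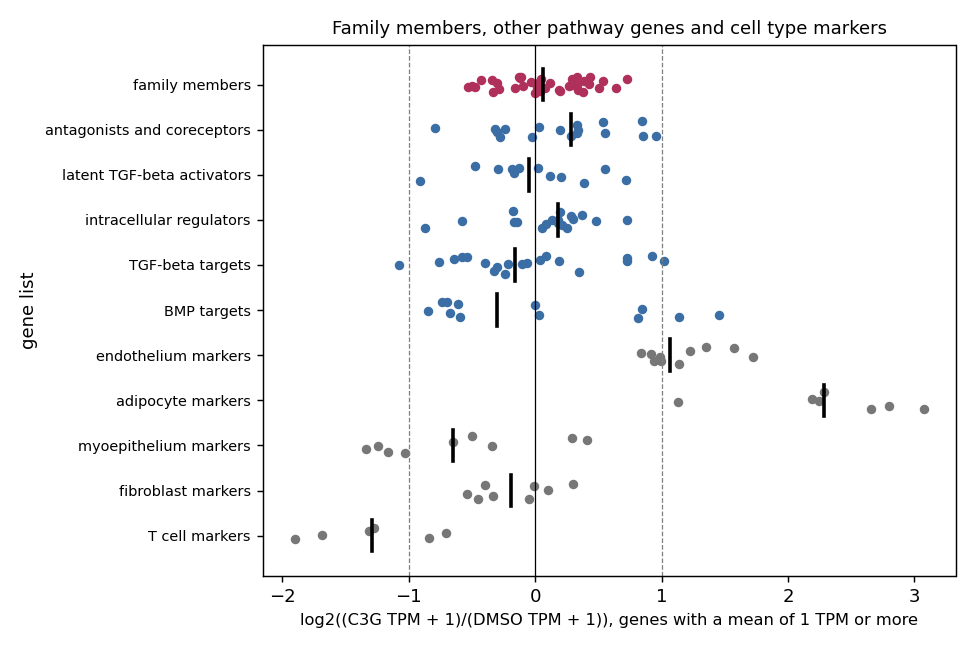
Log2 ratio, C3G over DMSO, of genes with a mean of at least 1 TPM in the family, in 5 other pathway lists and in 5 cell type marker lists, with a point per gene and a bar at the median. Dashed lines mark 2-fold; the family lies between them around a median of 0.06, while endothelial and adipocyte markers lie to the right and T cell markers to the left.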

How the data were processed

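Mammary tumor RNA was sequenced as 1 C3G and 1 DMSO library, made with the TruSeq RNA kit version 2, per the labels' protocols. Per the submitters' processing notes the tools were FastQC, MultiQC, Trimmomatic 0.38 and featureCounts 2.0.0 on build mm10, and the aligner is not given in the sources used here. The authors deposited TPM values, 1 column per library, each summing to 1000000. All 55536 identifiers matched GENCODE M21. Multiplied by the summed exon length, 100% of values above 0 in each library were multiples of 1 smallest step, within 0.01 of it, and that step was taken as 1 read. No count test was run.

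Log2 ratios were taken after adding a pseudocount of 1 TPM, so differences of weakly expressed genes are understated, and folds in the text are plain TPM ratios. Calls needed 5 TPM in either tumor and 2-fold or 1.5-fold on the log2 scale. Medians used genes with a mean of at least 1 TPM. Every member with at least 1 TPM in either tumor was named, as were up to 4 genes of each other list with the largest log2 ratio in size and at least 5 TPM. The members and lists were chosen with earlier results of these data known. Alternatives were a pseudocount of 0.1 or 5, no filter or a stricter one (20 TPM, mean 5 TPM), centring, rescaling without mitochondrial and the 50 most abundant genes, removal of length and GC trends (GC of the longest transcript), and at least 50 reads. Leaving out members that share 10% of exon bases with another gene was added after the data were seen. The code was checked on simulated counts. Python 3.11.15 with scipy 1.17.1 was used.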

Additional observations from a re-analysis of the deposited data

How the results depend on the processing

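No member passed 2-fold in either direction under any of the 9 alternatives run. The run without a filter kept the pseudocount of 1 TPM, and the run with a pseudocount of 0.1 kept the filter of 5 TPM. Plain ratios past 2-fold of members under 5 TPM, such as Gdf6 (3.80-fold lower), were therefore not called. The count higher past 1.5-fold was 2, and it was 0 with a pseudocount of 5, 0 under the stricter filter, which removes Ltbp4 and Smad6, and 1 (Ltbp4) on centring. The count lower past 1.5-fold was 0, and it was 3 with no filter on low values (Bmp15, Gdf6 and Gdf9, each with at most 18 reads in a library) and 2 (Bmp1 and Id4) on centring. The members' median log2 ratio ran from -0.06 on centring to 0.19 with length and GC trends removed. Centring changed the sign of Gdf3, Gdf5, Tgfbr3, Smad7, Id1 and Id2, and rescaling and trend removal each that of Inhbb. The median of antagonists and coreceptors was -0.025 under the stricter filter, that of TGF-beta targets -0.28 on centring and that of intracellular regulators 0.052 with trends removed, and the cause was not tested. Over all genes, 396 higher and 550 lower past 2-fold became 179 and 309 with a pseudocount of 5, 109 and 241 under the stricter filter, 218 and 312 with at least 50 reads, and 1086 and 1218 with no filter. Past 1.5-fold, 1467 and 1170 became 833 and 826, 630 and 523, 1219 and 827, and 3250 and 2862 under the same 4 alternatives, and 957 and 1540 on centring. No paired analysis was possible because each group holds 1 library, and leaving out a replicate was not possible for the same reason. Depth limits the 17 members under 1 TPM in both tumors, none with more than 28 reads in a library. The counting interval of the ratio left out 1 for Acvr1c (28 reads in the C3G library and 9 in the DMSO library, ratio 2.45, 1.13 to 5.91) and Bmp15 (4 reads in the C3G library and 12 in the DMSO library, 3.80-fold lower, 1.15 to 16.2). For the other members under 1 TPM no difference was detectable at this depth.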

Other observations

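Relatives of the family that its symbol rule left out were looked up after the values were seen. Amhr2, the type II receptor for anti-Mullerian hormone, stood at 9.62 TPM on 106 reads in the C3G tumor and 12.7 TPM on 110 reads in the DMSO tumor, a ratio of 0.760 (0.577 to 1.00), while the gene of its ligand, Amh, had 2 reads in the C3G library and 3 in the DMSO library. Tgfbr3l, a betaglycan-like gene, stood at 3.79 TPM in the C3G tumor and 3.07 TPM in the DMSO tumor. Tgfbrap1, whose product binds TGF-beta receptors, stood at 9.34 TPM in the C3G tumor and 8.91 TPM in the DMSO tumor, a ratio of 1.05 (0.922 to 1.19). Nodal had 0 reads in the C3G library and 3 in the DMSO library, myostatin (Mstn) 1 read in the C3G library and 0 in the DMSO library, and Lefty2 none in either.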
